A study of Ovis aries with 36 samples.

Results

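Imprinted genes that set fetal growth were followed in RNA sequencing libraries of fetal sheep. The list named 10 genes, NNAT, IGF2, IGF2R, DLK1, MEST, PEG3, PEG10, PLAGL1, GRB10 and CDKN1C, and took every locus of the deposited assemblies that carried 1 of these names, with loci of the same name summed. Of these, 8 were found, in all 3 tissues, among 22851 gene names; PEG3 and CDKN1C were not analysed here. All 8 passed the filter on low counts in every tissue. The RNA came from 26 fetuses of 15 polypay dams bred to a common sire, and was pooled to 4 pools per maternal diet, F1 and F2 from female and M1 and M2 from male fetuses. The dams received corn (CN), dried corn distillers grains (DG), which are what ethanol production leaves of the corn, or the diet labelled hay (HY), an alfalfa haylage, from mid gestation until the fetuses were collected in late gestation. Longissimus dorsi muscle of the back, subcutaneous fat near the shoulder blade and perirenal fat around the kidney each gave 12 libraries, 36 in all. None of the groups was untreated, and each comparison is between diets, tissues or sexes. By the study's list of pools, F2 of CN holds RNA of a single fetus. Every other pool shares a dam with another pool of its diet, so p-values measure the spread between pools that are not all independent. The counts hold no allele information, so nothing here speaks of imprinting itself.

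Imprinted genes are expressed from the allele of 1 parent, and many of them act on how fast a fetus and its tissues grow. IGF2 is a paternally expressed growth factor that circulates in the fetus; IGF2R, maternally expressed in many species, binds it and carries it to the lysosome, and GRB10 is an adaptor that damps signals from the insulin and IGF1 receptors. DLK1 is a membrane protein, also shed from the cell surface, that holds back the formation of fat cells, and the callipyge mutation, which causes heavy muscling in sheep, lies in its domain. MEST encodes an enzyme-like membrane protein that goes with fat cell enlargement in mice, NNAT (neuronatin) a small membrane protein of the endoplasmic reticulum, PEG10 a protein derived from a retrotransposon that the placenta needs, and PLAGL1 a zinc finger transcription factor that acts on other imprinted genes in mice. In skeletal muscle and fat, several of these genes are high in the fetus and decline after birth.

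On the sheep assembly Oar_v3.1, as the deposited annotation of the subcutaneous libraries places them, IGF2 lay on chr21:48655289-48682735, IGF2R on chr8:82858684-82959397, GRB10 on chr4:5227203-5296196, DLK1 on chr18:64327778-64335247, MEST on chr4:94279204-94429933, NNAT on chr13:66028675-66035435, PEG10 on chr4:11937473-11950346 and PLAGL1 on chr8:68227876-68343571. These intervals belong to a bundle of loci and can hold more than 1 gene. The bundle with MEST also held COPG2, and that with NNAT also held BLCAP in muscle and subcutaneous fat. Transcripts were merged separately for each tissue, so the counted locus differed: that of IGF2 also carried the name TH in muscle, where its bundle held 14 loci, and that of GRB10 started at position 5118176 in muscle. Library preparation is not stated to have kept strand, so reads of overlapping genes cannot be told apart.

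Total counts ran from 13749762 to 29625146 in muscle, 6705766 to 20272024 in subcutaneous fat and 7802700 to 15913813 in perirenal fat. In muscle the CN libraries (13749762 to 19387181 counts) were all shallower than the DG libraries (20370147 to 29625146 counts). Levels below are counts-per-million (CPM) values scaled over all 36 libraries. Muscle and perirenal libraries held the markers of their labelled tissue. The 12 skeletal muscle markers, among them ACTA1, CKM and TTN, summed to 89483 to 125671 CPM in muscle and 16.1 to 478 CPM in perirenal fat. In subcutaneous fat the same sum ran from 669 to 106414 CPM, within the range of muscle itself at its top. It exceeded 40000 CPM in 5 of the 12 subcutaneous pools: F2 of CN, F1, F2 and M2 of DG and F2 of HY. The 6 adipocyte markers, among them ADIPOQ and PLIN1, summed to 2057 to 11264 CPM in subcutaneous fat, 5875 to 15299 CPM in perirenal fat and 86.0 to 184 CPM in muscle. Values without these 5 pools are given for the tissue differences that involve subcutaneous fat and for NNAT, PLAGL1 and IGF2R between diets. In bulk RNA fewer cells of a type and less RNA per cell cannot be told apart.

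NNAT was highest in perirenal fat and lowest in muscle, IGF2 and DLK1 were highest in muscle, PEG10 was highest in subcutaneous fat, and GRB10 was nearly level. A fit over 36 libraries with pool as a block (quasi-likelihood test of edgeR, Benjamini-Hochberg adjusted over 14565 genes) called all 8 between muscle and perirenal fat, where 80.6% of all genes tested were called at a false discovery rate (FDR) of at most 0.05. It also called all 8 between muscle and subcutaneous fat (73.2% of all genes) and 6 between the fat depots (67.9%). A call alone therefore says little here, and the sizes are what set the members apart from each other. Their median log2 difference was 2.32 between muscle and perirenal fat, against -0.03 over all genes tested, 0.60 between muscle and subcutaneous fat against 0.01, and 1.43 between subcutaneous and perirenal fat against -0.04.

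**Figure D1:**
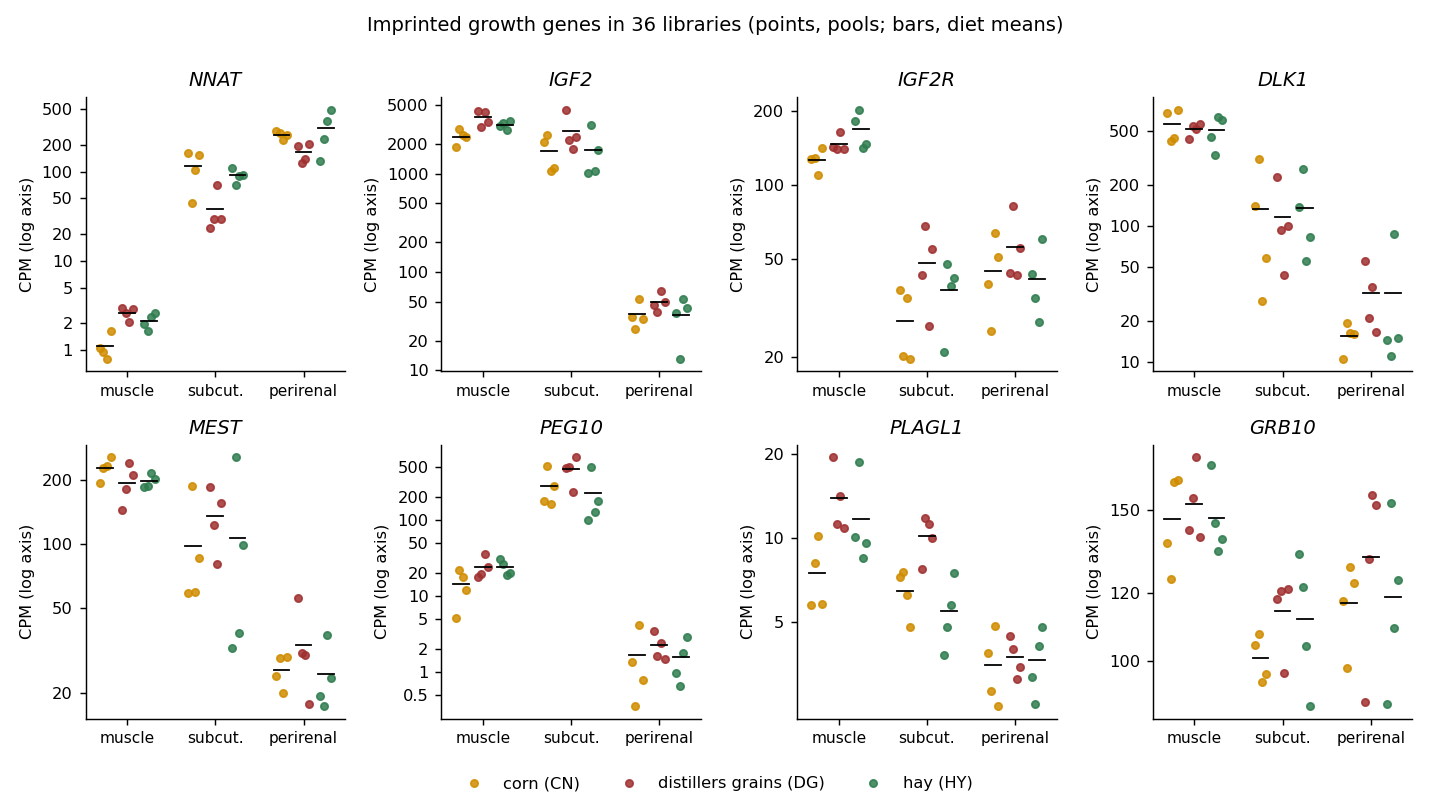
Level of each imprinted growth gene (CPM, log axis, a separate scale for each gene) in muscle, subcutaneous fat and perirenal fat, with each point a pool coloured by maternal diet and each bar a diet mean of 4 pools. NNAT lies at 0.800 to 2.92 CPM in muscle and above 20 CPM in every fat library, while PEG10 lies above 99 CPM in every subcutaneous pool and below 5 CPM in every perirenal pool.

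The growth factor IGF2 had a lowest, median and highest level of 1859, 3032 and 4326 CPM in muscle, of 1007, 1942 and 4459 CPM in subcutaneous fat and of 13.2, 41.3 and 63.5 CPM in perirenal fat. Muscle and perirenal pools did not overlap, whereas 1 subcutaneous pool, F1 of DG, lay above every muscle library. The log2 difference from perirenal fat was 6.19 (SE 0.28) for muscle and 5.56 (SE 0.27) for subcutaneous fat, and muscle exceeded subcutaneous fat by 0.63 (SE 0.22, FDR 0.0143). Only 5.01% of genes differed more between muscle and perirenal fat. This size changed when loci beside IGF2 were added to it, and whether those loci belong to IGF2 was not tested. In both fat depots a locus without a gene name starts within 1000 bases past the end of IGF2. It took a median of 1704 counts in subcutaneous and 1338 in perirenal fat, where IGF2 had 448. In muscle an unnamed locus in the bundle of IGF2 took a median of 2182 counts, and its own position is not given. With these and the other overlapping or same-identifier loci added, the log2 difference was 3.996 between muscle and perirenal fat. It was 3.47 between subcutaneous and perirenal fat and 0.53 between muscle and subcutaneous fat. Without the 5 subcutaneous pools rich in muscle RNA, the IGF2 locus alone was 1.22 higher in muscle than in subcutaneous fat and 5.03 higher in subcutaneous than in perirenal fat on the log2 scale.

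IGF2R, the receptor that removes IGF2, had a lowest, median and highest level of 110, 142 and 203 CPM in muscle, 19.7, 38.2 and 68.3 CPM in subcutaneous fat and 25.4, 43.6 and 82.3 CPM in perirenal fat. Every muscle library was above every fat library. The difference was 2.04 (SE 0.16) from subcutaneous and 1.70 (SE 0.16) from perirenal fat on the log2 scale. The depots overlapped, with a subcutaneous minus perirenal difference of -0.34 (SE 0.16, FDR 0.0586) that reached -0.63 (FDR 0.0313) without the 5 muscle-rich pools. GRB10, the adaptor downstream of the insulin and IGF1 receptors, varied least of the 8, from 125 to 173 CPM in muscle, 88.5 to 133 CPM in subcutaneous fat and 89.1 to 156 CPM in perirenal fat. All 3 ranges overlapped. Its muscle level was 0.45 (SE 0.10) above subcutaneous fat and 0.29 (SE 0.10, FDR 0.00871) above perirenal fat on the log2 scale, and the latter was -0.0026 when libraries were scaled by total counts alone. Without the 5 muscle-rich pools, muscle exceeded subcutaneous fat by 2.30 for IGF2R and 0.63 for GRB10, and the depots differed by -0.36 (FDR 0.0248) for GRB10. Scaling by totals also put IGF2R (-0.49) and GRB10 (-0.31) past the threshold between subcutaneous and perirenal fat.

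DLK1, the inhibitor of fat cell formation, was highest in muscle and lowest in perirenal fat. Its lowest, median and highest levels were 334, 529 and 715 CPM in muscle, 28.1, 96.1 and 310 CPM in subcutaneous fat and 10.55, 16.4 and 87.0 CPM in perirenal fat. Muscle lay above every pool of either depot, by 2.21 (SE 0.39) over subcutaneous and 4.58 (SE 0.43) over perirenal fat on the log2 scale, and the depots overlapped while differing by 2.36 (SE 0.41). MEST kept the same order at 145, 206 and 256 CPM in muscle, 32.3, 92.6 and 257 CPM in subcutaneous fat and 17.3, 26.6 and 56.0 CPM in perirenal fat. Subcutaneous MEST spanned 7.94-fold from lowest to highest and reached the muscle range in some pools; muscle MEST spanned 1.77-fold. Its log2 difference was 1.05 (SE 0.26) between muscle and subcutaneous fat and 1.89 (SE 0.27) between the depots. Without the 5 muscle-rich pools the depot difference was 1.39 for DLK1 and 1.22 for MEST, and muscle was above subcutaneous fat by 3.12 and 1.72.

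NNAT went the other way. Its lowest, median and highest levels were 0.800, 2.01 and 2.92 CPM in muscle, 23.3, 80.5 and 162 CPM in subcutaneous fat and 125, 229 and 494 CPM in perirenal fat. Perirenal fat was 127-fold and subcutaneous fat 39.0-fold above muscle, and 3.96% of genes differed more between muscle and perirenal fat. The depots differed by 1.70 (SE 0.19) on the log2 scale, and by 1.18 without the 5 muscle-rich pools, when subcutaneous fat was 5.81 above muscle on that scale. Muscle NNAT rested on 10 to 77 counts per library. Its bundle partner BLCAP stood at 159 to 218 CPM in muscle, and the share of BLCAP reads in the NNAT count was not tested.

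PEG10 stood apart as the member highest in subcutaneous fat. Its lowest, median and highest levels were 99.5, 259 and 677 CPM there, 5.16, 19.7 and 35.5 CPM in muscle and 0.355, 1.55 and 4.15 CPM in perirenal fat, and no pool of 1 tissue reached the range of another. The depots differed 167-fold (log2 7.39, SE 0.42), with 1.67% of genes differing more, and subcutaneous fat was 15.0-fold above muscle. Without the 5 muscle-rich pools these log2 differences were 6.64 and 3.14. Perirenal PEG10 rested on 5 to 64 counts. The transcription factor gene PLAGL1 was low throughout, at 5.75 to 19.4 CPM in muscle, 3.81 to 11.7 CPM in subcutaneous fat and 2.5 to 4.85 CPM in perirenal fat. Its muscle and perirenal pools did not overlap (log2 1.54, SE 0.16), and subcutaneous fat lay between them, 0.98 (SE 0.16) above perirenal fat and 0.57 (SE 0.15) below muscle. Without the 5 muscle-rich pools it was 1.05 above perirenal fat and 0.47 below muscle, the latter with an FDR of 0.0502 by edgeR.

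In muscle, 1 of the 8 genes, NNAT, passed an FDR of at most 0.05 between CN and DG, where 1.03% of all genes tested were called. The 4 CN pools (F1, F2, M1, M2) stood at 1.05, 0.961, 0.800 and 1.62 CPM, the DG pools at 2.92, 2.57, 2.06 and 2.87 CPM and the HY pools at 1.96, 1.62, 2.34 and 2.58 CPM. Every DG pool was above every CN pool, and the lowest HY pool was level with the highest CN pool. NNAT was 2.35-fold higher under DG (log2 1.23, SE 0.27, FDR 0.0447, quasi-likelihood test of edgeR, Benjamini-Hochberg adjusted over 18239 genes) and 0.94 (SE 0.27, FDR 0.0754) higher under HY than under CN on the log2 scale. The call is a narrow one. The counts behind it were 10 to 22 in CN and 39 to 77 in DG, and the FDR was 0.0860 after all libraries were thinned to the lowest total, 0.0571 with the replicate number as a block and 0.0495 to 0.135 as each library was left out in turn, where the call held only without pool M2 of CN. DESeq2 called NNAT, IGF2 and PLAGL1 in this comparison, and 3.86% of all genes. Summed skeletal muscle markers did not part the diets (90018 to 125671 CPM under DG, 89483 to 114163 CPM under CN), nor did summed adipocyte markers, at 117 to 184 CPM under DG and 86.0 to 139 CPM under CN. Single markers of these lists with an edgeR FDR of at most 0.20 were all higher under DG, a limit that 7.05% of all genes met. They were MYOD1 (log2 1.84, SE 0.32, FDR 0.0173), CKM (0.42, SE 0.15, FDR 0.190) and FABP4 (1.87, SE 0.57, FDR 0.137). The 4 endothelium markers found summed to 520 to 629 CPM under CN, 619 to 810 CPM under DG and 646 to 779 CPM under HY, so that HY pools lay above every CN pool and DG overlapped CN. Of these 4, only VWF had an edgeR FDR of at most 0.20 between CN and DG. It was higher under DG (log2 0.46, SE 0.12, FDR 0.0780). The part of any of these markers in the muscle results was not tested. BLCAP differed by 0.02 (SE 0.10) in the same contrast.

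**Figure D2:**
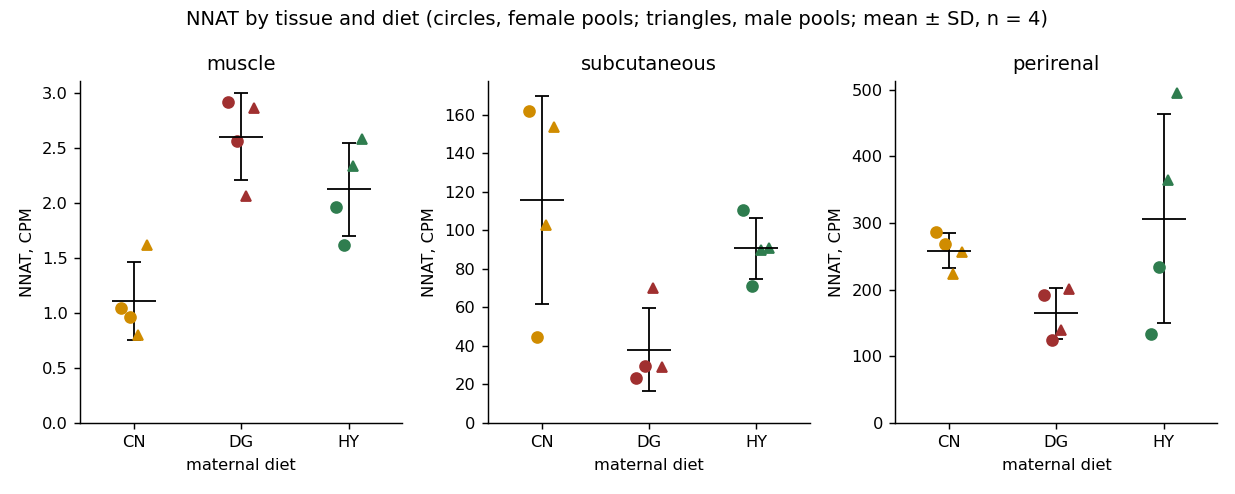
NNAT (CPM, linear axes from 0, a separate scale for each tissue) under corn (CN), distillers grains (DG) and hay (HY), with circles for female and triangles for male pools and black bars for mean ± SD of 4 pools. DG pools lie above CN pools in muscle and below CN pools in perirenal fat, and subcutaneous DG pools lie at 23.3 to 69.8 CPM against 44.6 to 162 CPM under CN.

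IGF2 and PLAGL1 also held DG pools above every CN pool in muscle without passing the threshold. IGF2 was 1859, 2852, 2444 and 2335 CPM in the CN pools, 4326, 2994, 4257 and 3301 CPM in the DG pools and 3070, 3262, 2782 and 3394 CPM in the HY pools. DG was thus 1.57-fold as high as CN in the fit (log2 0.65, SE 0.17, FDR 0.0777), and HY pools overlapped the CN range (log2 0.41, SE 0.17, FDR 0.182). PLAGL1 was 5.75, 8.14, 10.2 and 5.82 CPM under CN, 19.4, 11.2, 14.1 and 10.9 CPM under DG and 10.1, 18.6, 8.49 and 9.58 CPM under HY. It differed by 0.90 (SE 0.27, FDR 0.137) between DG and CN and by 0.66 (SE 0.27, FDR 0.194) between HY and CN on the log2 scale. These make 3 of 8 genes without overlap between CN and DG in the tissue's own scaling, as for 8.76% of all genes tested, and the lower CN depth was shared by all of them.

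Between CN and HY no member was called in muscle (2.98% of all genes were), with 5 of 8 at an unadjusted p under 0.05, as for 20.5% of all genes, and 2, NNAT and IGF2R, called by DESeq2 (7.68% of all genes). IGF2R had 127, 128, 110 and 142 CPM in the CN pools against 182, 203, 142 and 148 CPM in the HY pools (log2 0.42, SE 0.13, FDR 0.0909); its DG pools lay at 140 to 164 CPM. PEG10 had a DG minus CN value of 0.77 (SE 0.35, FDR 0.288) and an HY minus CN value of 0.77 (SE 0.35, FDR 0.229). DLK1, MEST and GRB10 differed by -0.23 to 0.06 in these contrasts, with SE of 0.12 to 0.22. At an FDR of at most 0.20 the members called were 3 of 8 between CN and DG, against 7.05% of all genes, and 4 of 8 between CN and HY, against 16.2%. Their median log2 difference was 0.43 for DG and 0.41 for HY over CN, beside -0.0032 and -0.02 over all genes tested. CN is the shared reference of these contrasts. Between DG and HY no member had a p under 0.05 and none was called by edgeR or DESeq2, like all genes (0% called by edgeR).

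**Figure D3:**
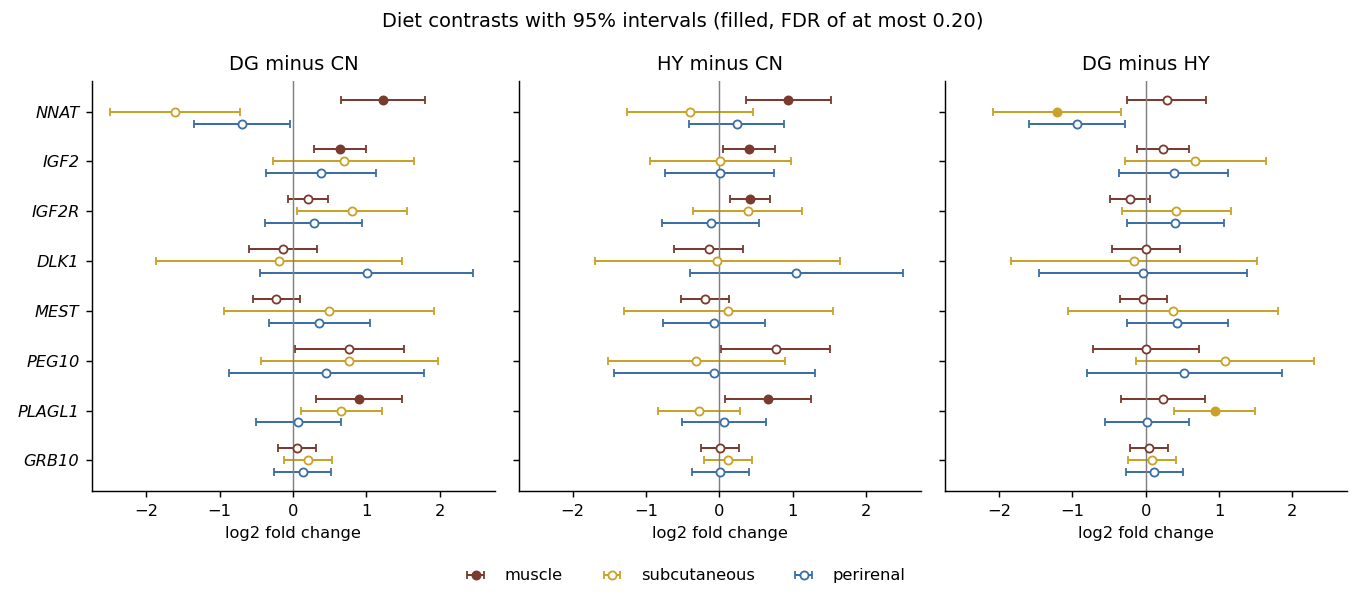
Log2 fold change of the 8 genes between diets, with 95% intervals from edgeR, in muscle, subcutaneous fat and perirenal fat, each panel a pair of diets named as first minus second. Filled points have an FDR of at most 0.20: 3 in muscle for DG minus CN, 4 in muscle for HY minus CN, and NNAT (negative) and PLAGL1 (positive) in subcutaneous fat for DG minus HY.

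In subcutaneous fat no member was called between any pair of diets, as no gene was (0% called in each pair). NNAT had the largest difference. Its CN pools stood at 162, 44.6, 103 and 154 CPM, its DG pools at 23.3, 29.4, 69.8 and 29.2 CPM and its HY pools at 110, 71.0, 89.9 and 90.8 CPM. The DG pools lay below all HY pools and overlapped CN at 1 pool of each diet, M1 of DG and F2 of CN. The log2 difference was -1.61 (SE 0.41, FDR 0.253) from CN and -1.21 (SE 0.40, FDR 0.163) from HY. DESeq2 called NNAT against CN (FDR 0.0163, 1.54% of all genes called) and both NNAT and PLAGL1 against HY (FDR 0.0496 and 0.0128, 5.17% of all genes called). With the muscle markers as a covariate edgeR called NNAT against CN (log2 -1.56, FDR 0.0404) and 0.809% of all genes. At an FDR of at most 0.20, NNAT and PLAGL1 were called against HY, beside 11% of all genes. Of the 5 muscle-rich pools 3 were DG pools, and without the 5 the differences were -1.002 (FDR 0.641) from CN and -0.45 (FDR 0.648) from HY. That left DG with the single pool M1, assumed to vary as the other pools do.

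PLAGL1 in subcutaneous fat was 7.26, 7.53, 6.25 and 4.81 CPM under CN, 7.74, 11.7, 11.2 and 9.95 CPM under DG and 3.81, 4.81, 5.74 and 7.49 CPM under HY. DG pools were above every pool of CN and HY, by 0.66 (SE 0.26, FDR 0.286) and 0.94 (SE 0.26, FDR 0.125) on the log2 scale. Without overlap between CN and DG stood 1 of 8 members, PLAGL1, as for 6.83% of all genes tested. Between DG and HY it was 2 of 8, NNAT and PLAGL1, as for 9.18%. Without the 5 muscle-rich pools the values were 0.86 and 0.9992 (FDR 0.750 and 0.516). IGF2R differed by 0.80 (SE 0.35, FDR 0.317) between DG and CN, and by -0.21 without those pools. Of 8 members 3 had a p under 0.05 between CN and DG (15% of all genes), 0 between CN and HY (4.37%), where DESeq2 called 0 too, and 2 between DG and HY (18.2%). IGF2, DLK1, MEST and PEG10 ranged so widely within each diet (fitted coefficients of variation of 47.4% to 71.7%, against a median of 31.6% over all genes) that differences of up to 1.08 on the log2 scale had FDR of 0.318 or more.

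In perirenal fat no member was called between any pair of diets (0% of all genes called in each pair), by edgeR or by DESeq2. NNAT was 286, 268, 223 and 256 CPM under CN, 191, 125, 139 and 201 CPM under DG and 133, 234, 365 and 494 CPM under HY. Every DG pool was below every CN pool (log2 -0.70, SE 0.30, FDR 0.468 by edgeR), and HY pools ran from near the lowest to above the highest pool of the other diets (DG minus HY -0.94, SE 0.30, FDR 0.366). Without overlap between CN and DG stood NNAT alone, 1 of 8, where 6.54% of all genes did. DLK1 ranged from 10.55 to 19.2 CPM under CN, from 16.4 to 55.0 CPM under DG and from 11.1 to 87.0 CPM under HY, a DG minus CN difference of 1.01 (SE 0.66, FDR 0.683). Markers of fibroblasts and stroma summed to 2666 to 8014 CPM under DG and 3281 to 4985 CPM under CN, and their part was not tested. Members with a p under 0.05 numbered 1 between CN and DG (9.87% of all genes), 0 between CN and HY (2.34%) and 1 between DG and HY (9.99%), in each case NNAT.

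NNAT therefore had a DG minus CN difference of 1.23 in muscle, -1.61 in subcutaneous fat and -0.70 in perirenal fat on the log2 scale. The difference of these differences was tested in the fit over 36 libraries. Between muscle and subcutaneous fat it was 2.84 (SE 0.53, FDR 0.0919 by edgeR), the gene ranked 3 of 14565, and it did not pass the threshold, which 0.00687% of genes did. It was 1.95 (SE 0.52, FDR of 1) between muscle and perirenal fat and -0.89 (SE 0.46, FDR 0.504) between the depots, with 0% and 0.0206% of genes called. Without the 5 muscle-rich pools the difference between muscle and subcutaneous fat was 1.98 (FDR 0.402), without the pool block its FDR was 0.0487, and DESeq2 gave an FDR of 5.4e-04 and called 0.13% of all genes. For DG against HY the difference between muscle and subcutaneous NNAT was 1.67 (SE 0.50, FDR 0.121; 0% of genes called), and 0.48 without those pools. PLAGL1 between the depots had 0.89 (SE 0.39, FDR 0.161; 6.49% of genes called). These were the members with an FDR of at most 0.20 among the 9 tissue-by-diet differences, a limit that 0.0206%, 11.1% and 23.1% of all genes met in the same order. For CN against HY 2 of 8 had a p under 0.05, NNAT and PLAGL1 between muscle and subcutaneous fat (6.78% of all genes), with 0% of genes called and none of the 8 called by DESeq2.

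Between sexes no member was called by edgeR with diet in the model in muscle (0% of all genes), subcutaneous fat (0%) or perirenal fat (0.0222%). The largest difference was that of DLK1 in subcutaneous fat, at 93.2 to 310 CPM in female and 28.1 to 99.0 CPM in male pools. Male minus female was -1.72 (SE 0.38, FDR 0.279 by edgeR's quasi-likelihood test), while DESeq2 called it (FDR 0.00191, with 0.691% of all genes called) and no other member in any tissue. The summed skeletal muscle markers had a median of 43893 CPM in female and 5087 CPM in male subcutaneous pools, and with these markers as a covariate the DLK1 difference was -1.32 (FDR 0.573 by edgeR). MEST in muscle (0.30, SE 0.10, FDR 0.939) and IGF2 in perirenal fat (0.59, SE 0.23, FDR of 1) were nominally higher in male pools. In subcutaneous fat IGF2 (-0.80, SE 0.29, FDR 0.302) and GRB10 (-0.25, SE 0.10, FDR 0.314) were nominally lower in male pools by edgeR. Members with a p under 0.05 numbered 1 of 8 in muscle (3.84% of all genes), 3 of 8 in subcutaneous fat (14.9%) and 1 of 8 in perirenal fat (3.26%).

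Several members moved with the summed markers of other cell types in subcutaneous fat. Across the 12 subcutaneous pools, log2 levels correlated with the log2 summed muscle markers at r = 0.86 for MEST, 0.83 for PEG10, 0.82 for IGF2, 0.65 for DLK1, 0.53 for IGF2R, 0.28 for GRB10, 0.27 for PLAGL1 and -0.60 for NNAT. With the summed adipocyte markers r was 0.75 for NNAT, -0.86 for IGF2 and PEG10 and -0.88 for MEST. With the 7 markers of fibroblasts and preadipocyte stroma, COL1A1 among them, r in subcutaneous fat was 0.69 for MEST, 0.68 for IGF2, 0.62 for DLK1 and 0.57 for PEG10. In perirenal fat it was 0.83 for MEST and 0.82 for DLK1. These are 12 pools that share libraries and scaling, diet means were not taken out, and the values are descriptions. PEG10 was higher in pools with more muscle marker RNA, and its level in muscle (5.16 to 35.5 CPM) was below that of every subcutaneous pool. MEST in F2 of HY (257 CPM) and IGF2 in F1 of DG (4459 CPM) were above every muscle library. The source of these correlations was not tested. Within muscle MEST and PEG10 had r of 0.02, within perirenal fat 0.25 and within subcutaneous fat 0.93.

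**Figure D4:**
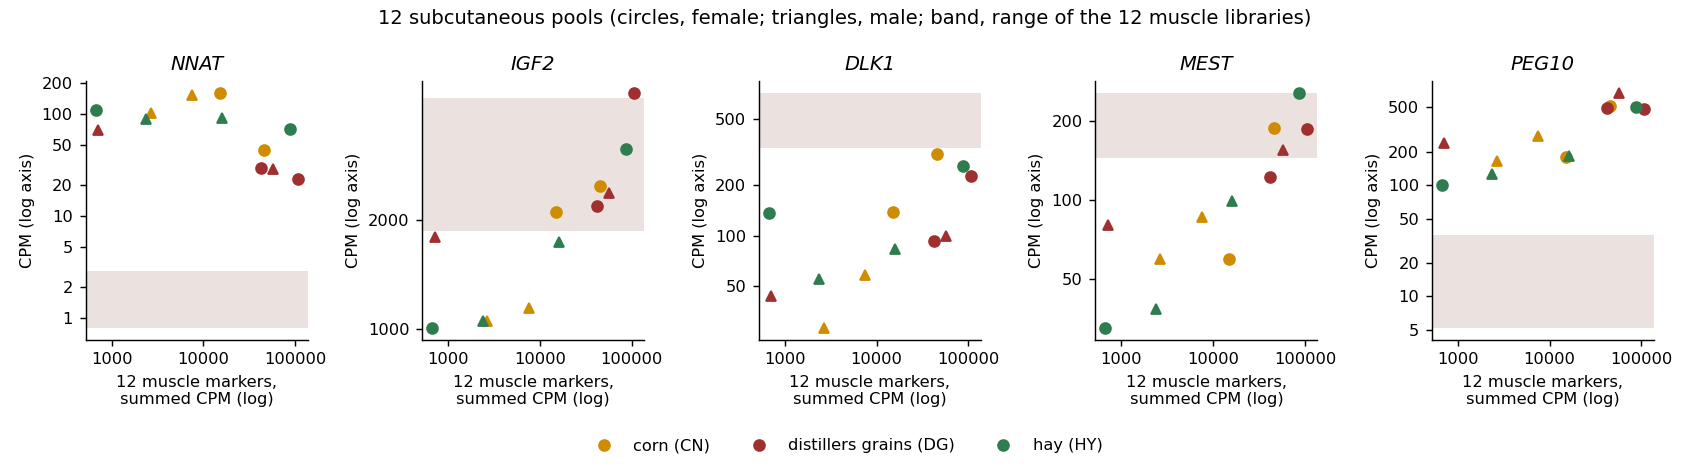
Levels of NNAT, IGF2, DLK1, MEST and PEG10 (CPM, log axis) in the 12 subcutaneous pools against the summed CPM of 12 skeletal muscle marker genes (log axis), with circles for female and triangles for male pools, colours for diet and a band for the range of the 12 muscle libraries. IGF2, MEST and PEG10 are higher in pools with more muscle marker RNA (r = 0.82, 0.86 and 0.83) and NNAT is lower (r = -0.60), while PEG10 lies above the muscle band in every pool.

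Neighbours of the members in their imprinted domains were read where the files hold them. H19, a maternally expressed noncoding RNA that shares enhancers with IGF2, appears as a locus named H19_1 (chr21:48607770-48608540 in subcutaneous fat). In muscle it stood at 1262, 440, 655 and 826 CPM in the CN pools, 3872, 2605, 1675 and 1912 CPM in the DG pools and 1518, 904, 1110 and 1883 CPM in the HY pools. It rose under DG against CN by 1.66 (SE 0.33, FDR 0.0330 by edgeR), with every DG pool above every CN pool. Centred on tissue means but not on diet means, IGF2 and H19_1 had r of 0.76 over 36 libraries. Within tissues r was 0.55 for muscle, 0.90 for subcutaneous fat and 0.74 for perirenal fat. H19_1 medians were 1390 CPM in muscle, 112 CPM in subcutaneous and 19.97 CPM in perirenal fat, the tissue order of IGF2. MEG3_2, a locus of the noncoding RNA beside DLK1, had medians of 1570, 589 and 538 CPM in that order and an r with DLK1 of 0.18 for muscle, 0.62 for subcutaneous fat and -0.05 for perirenal fat.

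**Figure D5:**
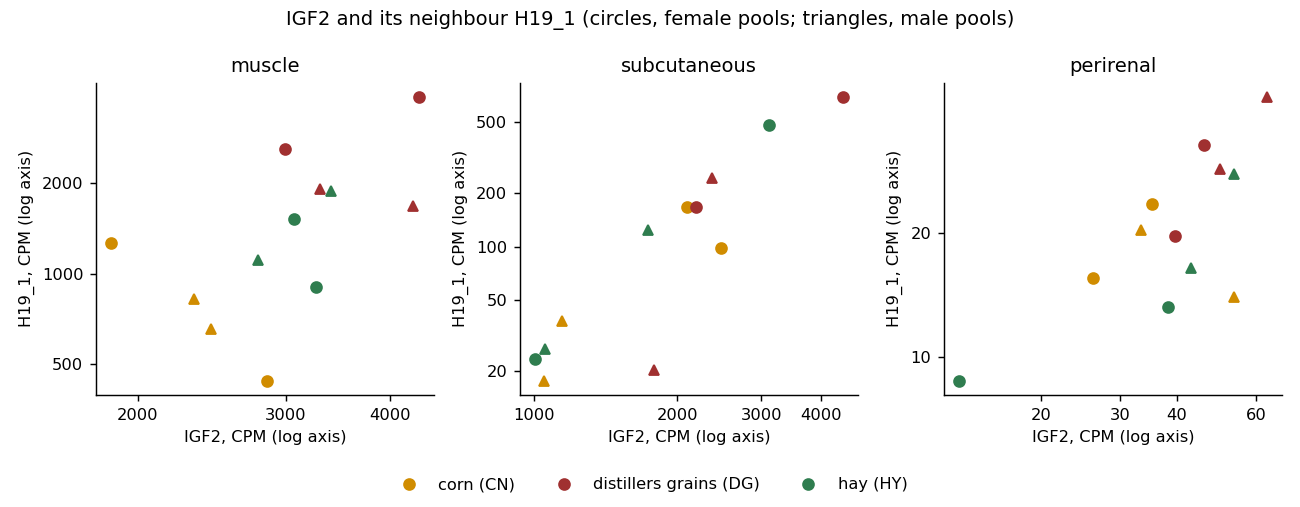
H19_1 against IGF2 (both CPM, log axes with separate scales for each tissue) in the 12 pools of each tissue, with circles for female and triangles for male pools and colours for maternal diet. In muscle every DG pool lies above every CN pool on both axes while HY pools overlap both diets, and r was 0.55 in muscle, 0.90 in subcutaneous fat and 0.74 in perirenal fat.

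The other neighbours had no diet call. BLCAP had medians of 196, 104 and 131 CPM in muscle, subcutaneous and perirenal fat, SGCE beside PEG10 89.2, 66.2 and 36.9 CPM, and COPG2 beside MEST 51.7, 37.0 and 11.3 CPM. SLC22A3, which lies near IGF2R, had medians of 10.7, 126 and 242 CPM, low in muscle where IGF2R was highest. MAS1 (0.457, 2.04 and 3.56 CPM), DDC beside GRB10 (5.96, 4.92 and 3.69 CPM), KCNQ1 near CDKN1C (1.08, 0.642 and 1.35 CPM) and ZIM2 near PEG3 (0.198, 0.252 and 0.191 CPM) were low. COPG2 and MEST had r of 0.85 in subcutaneous fat and 0.06 in muscle, and SGCE and PEG10 0.89 and -0.46. Apart from H19_1, which the name H19 on the list does not match, no diet comparison called any of the other imprinted genes on a list of 52, of which 29, 26 and 25 were tested in muscle, subcutaneous and perirenal fat, nor any of the 11, 10 and 10 tested genes of the IGF system. For the tissue-by-diet differences, 1 gene of these lists was called, IGFBP2, an IGF binding protein, whose DG minus HY difference was 1.35 lower in subcutaneous than in perirenal fat on the log2 scale (SE 0.36, FDR 0.0306), in the contrast where 6.49% of all genes were called. Of 11 genes of the mouse imprinted gene network that were tested, 1 was called in muscle between CN and DG (1.03% of all genes). It was NNAT, and that list holds every member analysed here except PEG10. Between tissues, 26 of 30 other imprinted genes differed between muscle and perirenal fat, 18 higher and 8 lower in muscle, near the 80.6% of all genes called.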

How the data were processed

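Poly(A) libraries of the pooled RNA were sequenced by the authors (Illumina HiSeq, single-end reads), aligned to Oar_v3.1 with TopHat 2.0.4, allowing a read several locations, assembled with Cufflinks 2.1.1, merged separately for each tissue and counted with HTSeq, whose version and settings are not given in the sources used here. The deposited values are raw counts per locus. Groups came from the sample labels. Loci of the same name were summed, and CPM used TMM scaling over 36 libraries. Within each tissue, edgeR 4.0.16 (R 4.3.3; TMM, filterByExpr by diet, at least 10 counts and 15 in total, robust quasi-likelihood test) was fitted to 12 pools with diet and no covariate, and for sex with diet as covariate; a fit over 36 libraries held the 9 means of tissue and diet, with pool as block, assuming that pools of the same label hold the same fetuses in every tissue (mean correlation of the same pool 0.04 to 0.11 between tissues). FDR is the Benjamini-Hochberg value over all rows tested, called at 0.05, with 0.20 beside it; SE is the fold change over the square root of F. DESeq2 1.42.0, likelihood-ratio, scaling, filter, block and leave-one-out alternatives were run, and the fits were tested on simulated data. Named genes are the 10 members, their domain neighbours, called genes of the lists of other imprinted and IGF system genes, and, for each member, the 3 most correlated genes. Members and lists were chosen with earlier results of these data known. Arms of 4 pools limit the precision, and counts cover sampling error only in part.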

Additional observations from a re-analysis of the deposited data

Results flagged for a closer look

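Among 72 groups of 4 pools (8 genes, 3 tissues, 3 diets), 5 held a pool far from the other 3 by Dixon's test, and chance gives about 1 in 20. NNAT in subcutaneous fat was 69.83 CPM in pool M1 of DG and 23.29 to 29.38 CPM in the other DG pools. The same library had the lowest GRB10 of its group, 96.78 CPM against 118.1 to 121.4 CPM. IGF2R in muscle was 163.7 CPM in pool M1 of DG against 139.8 to 143.2 CPM. DLK1 in perirenal fat was 87.04 CPM in pool M1 of HY against 11.12 to 15.09 CPM. PLAGL1 in muscle was 18.61 CPM in pool F2 of HY against 8.488 to 10.07 CPM. The subcutaneous pool M1 of DG also had the lowest summed muscle markers of the DG pools, 714 CPM against 42167 to 106414 CPM.

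The locus without a gene name beside IGF2, which the comparisons of named genes leave out, took a median of 1703.5 counts in subcutaneous fat and 1337.5 in perirenal fat. In muscle the unnamed locus is known only to lie in the bundle of IGF2, and took a median of 2181.5 counts. Perirenal fat has the lowest IGF2 count (median 447.5) and the lowest ratio of the named to the unnamed locus.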

How the results depend on the processing

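The counts of members called kept within 1.5 times of the reported count in 129 of 153 alternatives, were lower in 5 and higher in 19. With 1 library left out they kept within it in 344 of 360 fits. Single members kept their direction and call in 376 of 404 alternatives and in 1349 of 1368 fits with 1 library left out. These fits cover every tissue difference, and other results only where the reported unadjusted p was under 0.05. A result that was not called and stayed so counts as kept. The called NNAT difference between CN and DG in muscle kept its call in 1 of 12 fits with a library left out. Between CN and DG in muscle, where 1 member was called, 0 were called without the filter on low counts, with the replicate number as a block, with only the 8 pools compared or with thinned counts, 2 by the likelihood-ratio test and 3 by DESeq2 or at an FDR of at most 0.20. Leaving out a library gave 0 to 1. The 1 was NNAT (FDR 0.0495 by edgeR) without pool M2 of CN and IGF2 (FDR 0.0480) without pool F2 of CN. Between CN and HY in muscle, where 0 were called, the likelihood-ratio test called 1, DESeq2 2 and the FDR of at most 0.20 4. In subcutaneous fat, where 0 were called, 1 was called between CN and DG by DESeq2 and with skeletal muscle markers as covariate. Between DG and HY 2 were called by DESeq2 and at an FDR of at most 0.20, and 0 to 1 with a library left out (1 without F2 of HY). Without F2 of HY, 598 of 18133 genes were called in this comparison. Between sexes 1 was called by DESeq2 and by the likelihood-ratio test. Between muscle and subcutaneous fat 5 of the 8 calls had an absolute log2 fold change of at least 1. For the tissue differences of CN against DG, where 0 were called, 1 was called by DESeq2, without the replicate block, by the likelihood-ratio test and at an FDR of at most 0.20, and 0 to 1 with a library left out (1 without F2 of CN, M1 of DG or F1 of HY in subcutaneous fat, or F1 of HY in perirenal fat). In the same order, the pair of tissues with the most calls had 1 of 14647, 112 of 14727, 3 of 14745 and 3 of 14750 genes called. For those of DG against HY 1 was called by the likelihood-ratio test and DESeq2, 2 at an FDR of at most 0.20, and 0 to 1 with a library left out (1 without subcutaneous M1 of DG). Without that library, the pair of tissues with the most calls had 1420 of 14727 genes called. The sign turned for IGF2R in subcutaneous fat between CN and DG, to -0.21 without the 5 muscle-rich pools, and for GRB10 between muscle and perirenal fat, to -0.0026 with scaling by library totals. The cause of these changes was not tested.

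Pools with the same number within a tissue were compared by their deviations from diet means. Their mean r was -0.03 in muscle, 0.18 in subcutaneous fat and 0.07 in perirenal fat. For pools of other numbers it was 0.01, -0.06 and -0.02 in the same order. In subcutaneous fat the same-number values ran from -0.37 to 0.55. Pools with the same number share that number and the fetal sex that the label gives. The replicate block changed 1 count of members, that of muscle CN against DG, from 1 to 0, and took the genes called between DG and HY in subcutaneous fat from 0 to 283. Over all genes, the 187 calls between CN and DG in muscle became 703 by DESeq2, 622 by the likelihood-ratio test, 2 with the 8 pools compared and 9 to 341 with a library left out. The 543 calls between CN and HY became 281 with scaling by library totals, 1400 by DESeq2, 1158 by the likelihood-ratio test, 273 with the block and 30 to 1255 with a library left out. Scaling by library totals moved the median of all genes by -0.29 between muscle and perirenal fat, -0.14 between muscle and subcutaneous fat, -0.15 between the depots and, in subcutaneous fat, -0.12 in DG minus CN and -0.15 in DG minus HY. Thinning, leaving out the 5 muscle-rich pools, the summed IGF2 loci and the marker covariate of the sex test were chosen after seeing the data. Depth limits NNAT in muscle (10 to 77 counts) and PEG10 in perirenal fat (5 to 64 counts).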

Other observations

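For each member the 3 genes whose log2 CPM, centred on tissue means, correlated best with it over 36 libraries were taken from the genes tested in the joint fit. The libraries share pools and scaling, diet means were not taken out, and no test was made. NNAT went with GALNT14 (r = 0.72), DGAT2 (0.70), which makes triglyceride, and HSL (0.68), the hormone-sensitive lipase, although r with HSL was 0.81 within muscle, 0.82 within subcutaneous fat and 0.04 within perirenal fat. IGF2 went with EIF3I (0.82), ARL2 (0.81) and SEMA4D (0.81), and IGF2R with DAG1 (0.86), NFE2L1 (0.81) and LRIG1 (0.81). DLK1 went with VSTM4 (0.84), LOXL1 (0.81) and TGFBI (0.81), the latter both extracellular matrix genes, and MEST with WLS (0.91), which exports Wnt ligands, OLFML2B (0.89) and LEPREL1 (0.89). PEG10 went with TUBB (0.77), RALGPS2 (0.77) and SAMD4A (0.76), PLAGL1 with RBL2 (0.87), PRPF4B (0.83) and USP53 (0.81), and GRB10 with B3GALNT2 (0.64), PFKFB4 (0.64) and RHEBL1 (0.61 over all libraries and -0.0020 within muscle). No member was among the 3 best of another.

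Within muscle, IGF2 and PLAGL1 had r of 0.83 over 12 pools and IGF2 and PEG10 0.77, while DLK1 and PLAGL1 had -0.74. In perirenal fat PEG10 and PLAGL1 had 0.84, and DLK1 and MEST 0.79. Diet means were not taken out, so these values include any shift between diets.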
